A study of Mus musculus with 6 samples.

Results

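Open chromatin was described at 8 genes of the insulin-like growth factor (IGF) system in mouse bone marrow MSPCs (mesenchymal stem and progenitor cells): the ligand gene Igf1, its receptor gene Igf1r, and the genes of 6 binding proteins, Igfbp2, Igfbp3, Igfbp4, Igfbp5, Igfbp6 and Igfbp7. A peak belonged to a gene if its summit lay in the gene or within 100 kb of it and no other protein-coding gene span of mm10 was nearer. By this rule 91, 96 and 90 of the 65462 strongest peaks belonged to the 8 genes in DOX replicates 1, 2 and 3, and 98, 93 and 101 in PBS replicates 1, 2 and 3. After overlapping peaks of all libraries had been merged, the genes held 108 of 78613 regions. The mice were Lepr-Cre;LSL-tdTomato+/- females in both groups, so that tdTomato marked cells in which Lepr-driven Cre is or had been active. They were 8 to 10 weeks old when they received 4 intravenous doses of 5 mg/kg doxorubicin (DOX, 3 libraries) or PBS (3 libraries), spaced 1 week apart. Marrow was taken 8 weeks after treatment, sorted for tdTomato and assayed by ATAC-seq, in which a transposase tags accessible DNA. The labels call the 3 libraries of a group biological replicates, and the sources used here do not say whether a library came from 1 mouse or a pool.

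Insulin-like growth factors are secreted peptides that bind the receptor tyrosine kinase encoded by Igf1r and promote growth and survival of many cells, among them osteoblast progenitors. Most IGF outside cells is held by binding proteins, which prolong its life, keep it from the receptor or release it when proteases cut them. Marrow stromal cells and osteoblasts make both the ligand and several binding proteins.

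The promoter was open at 6 of the 8 genes and covered little or not at all at the other two, Igfbp2, where a peak of DOX replicate 1 alone reached 4 bases into the window, and Igfbp6. RefSeq (build GRCm38.p6) gave 9 promoter windows of 300 bases for the 8 genes, each reaching from 250 bases before an annotated start site to 50 bases after it, with 2 windows for Igfbp2. A kept peak touched the window of Igf1, Igf1r, Igfbp3, Igfbp4, Igfbp5 and Igfbp7 in all 6 libraries. Over all 21045 such windows of protein-coding genes, 56.3%, 56.4% and 56.6% were touched in DOX replicates 1, 2 and 3, against 55.7%, 55.8% and 54.9% in PBS replicates 1, 2 and 3. The windows of Igfbp4 and Igfbp5 are shown because they held a peak summit in every library, and those of Igfbp2 (the first of its windows) and Igfbp6 because peaks left them almost free, a choice made after the values were seen. Capitals mark matches to the motifs named after the sequences.
Igfbp4, chr11:99040994-99041293, plus strand: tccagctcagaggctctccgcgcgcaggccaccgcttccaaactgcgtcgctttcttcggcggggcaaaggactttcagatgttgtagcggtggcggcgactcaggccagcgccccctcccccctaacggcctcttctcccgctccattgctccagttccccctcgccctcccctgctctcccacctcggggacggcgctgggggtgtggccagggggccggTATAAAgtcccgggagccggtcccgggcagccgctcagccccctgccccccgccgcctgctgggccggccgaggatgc
Igfbp5, chr1:72874816-72875115, minus strand: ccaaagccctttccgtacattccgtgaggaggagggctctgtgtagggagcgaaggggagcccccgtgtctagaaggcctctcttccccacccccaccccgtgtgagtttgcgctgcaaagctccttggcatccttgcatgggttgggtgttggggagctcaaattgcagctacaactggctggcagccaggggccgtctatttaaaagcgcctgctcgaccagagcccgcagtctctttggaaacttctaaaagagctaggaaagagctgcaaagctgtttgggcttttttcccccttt
Igfbp2, chr1:72824230-72824529, plus strand: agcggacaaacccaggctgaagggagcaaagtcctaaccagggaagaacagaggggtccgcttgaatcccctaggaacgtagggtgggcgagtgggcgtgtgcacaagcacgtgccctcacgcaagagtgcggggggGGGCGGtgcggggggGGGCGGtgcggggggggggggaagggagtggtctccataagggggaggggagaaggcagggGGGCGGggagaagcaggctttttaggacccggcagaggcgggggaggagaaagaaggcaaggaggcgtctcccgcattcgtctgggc
Igfbp6, chr15:102143936-102144235, plus strand: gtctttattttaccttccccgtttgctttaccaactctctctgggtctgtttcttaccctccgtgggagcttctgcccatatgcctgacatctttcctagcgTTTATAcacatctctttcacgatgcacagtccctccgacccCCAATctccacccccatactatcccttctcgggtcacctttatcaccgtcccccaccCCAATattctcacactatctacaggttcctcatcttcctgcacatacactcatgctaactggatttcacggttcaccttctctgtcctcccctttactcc
The motifs searched on both strands were the GC box GGGCGG, the CCAAT box CCAAT, the TATA box TATAAA, the AP-1 site TGANTCA, the EBF site (TCCC, any 2 bases, then GGGA), the RUNX site TGTGGT and the forkhead site GTAAACA. Over all 21045 windows they occurred in 46.7%, 38.5%, 12.7%, 7.04%, 0.965%, 14.7% and 3.03% in that order. The Igfbp4 window held 1 TATA box, and the Igfbp5 window held none of the 7 motifs. The Igfbp2 window held 3 GC boxes, while the Igfbp6 window held 2 CCAAT boxes and 1 TATA box. CpG dinucleotides are given as a description. The windows of Igfbp5 and Igf1, touched in every library, had 10 and 6, the first window of Igfbp2 had 18, and the second of Igfbp2 and that of Igfbp6, touched in no library, had 14 and 8. The second Igfbp2 window held 1 AP-1 site. The other windows touched in every library, those of Igf1r, Igfbp3, Igfbp7 and Igfbp4, had 48, 37, 33 and 27 CpGs, against a median of 13 over all windows. The window of Igf1r held 2 GC boxes and that of Igfbp7 held 4, that of Igfbp3 1 RUNX site and that of Igf1 1 CCAAT box and 1 AP-1 site. None of these strings contains another. A match is only a run of letters, and no match says only that the letters are not in the window.

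The libraries differed in background, taken here as a measure of depth, along with treatment. The background, the mean pileup (reads or fragments stacked over a position) as solved from the peak scores, was 1.67 to 2.22 in DOX and 0.558 to 1.27 in PBS libraries, with PBS replicate 3 the lowest. Which of the 2 was stacked is not in the sources used here. The part of depth in the differences given here was not tested. Each library was therefore held to its 65462 strongest peaks, as many as the shortest list has, and the height of a peak is given as its summit pileup in multiples of the background of its own library. Peaks tied at the cut were kept in the order of chromosome name and position. The lowest kept peak stood at 11.6 to 12.6 times the background in DOX libraries and at 8.97 to 12.8 times in PBS libraries. Most markers of the labelled cell type were open. Of 14 MSPC genes such as Cxcl12, Lepr and Pdgfra, all had a kept peak touching the 1 kb around an end of the gene in each library other than PBS replicate 3, which had 13. Of 8 endothelial genes 3 to 4 had such a peak in DOX libraries and 3 to 4 in PBS libraries, and Pecam1, Cdh5, Emcn and Tek had none in any library. The counts were 2 to 3 in DOX and 3 in PBS for 7 myeloid genes, without Elane, Mpo, Csf1r and Lyz2 in any library, and 2 of 6 B cell genes, 2 of 5 T cell genes and 1 of 5 osteoblast and osteocyte genes in every library. Pax5 and Ms4a1 (B cells), Cd3e and Cd8a (T cells) and Bglap, Dmp1, Sost and Phex (osteoblasts and osteocytes) had none in any library. Of 6 erythroid and megakaryocyte genes 3 had such a peak in DOX libraries and 3 to 4 in PBS libraries. Over all 21631 protein-coding genes the share was 59.7% to 60.0% in DOX and 58.6% to 59.3% in PBS.

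Igf1, Igf1r and Igfbp7 were among the genes with the most peaks in the genome. Igf1r averaged 22.3 peaks over the 6 libraries, and 1.04% of protein-coding genes had at least as many. Igfbp7 averaged 20.3 and Igf1 had 18 to 21 in each library, with 1.39% and 1.42% of genes at or above them. Igfbp5 followed with 14.5 peaks and 3.02% of genes at or above it. The other members had few peaks: 5 to 7 in a library at Igfbp4, 3 to 9 at Igfbp2, 4 to 5 at Igfbp3 and 1 to 2 at Igfbp6, and 12.7%, 15.8%, 16.4% and 42.5% of genes had at least as many. A gene can collect more peaks where the stretch of genome nearest to it is longer, and that stretch ranged from 9.70 kb for Igfbp6 to 379 kb for Igf1r. Per 100 kb of that stretch the order was another one: 22.1 peaks at Igfbp4, 18.9 at Igfbp6, 16.2 at Igfbp5, 12.8 at Igfbp7, 7.82 at Igf1, 5.90 at Igf1r, 5.81 at Igfbp2 and 4.35 at Igfbp3.

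**Figure D1:**
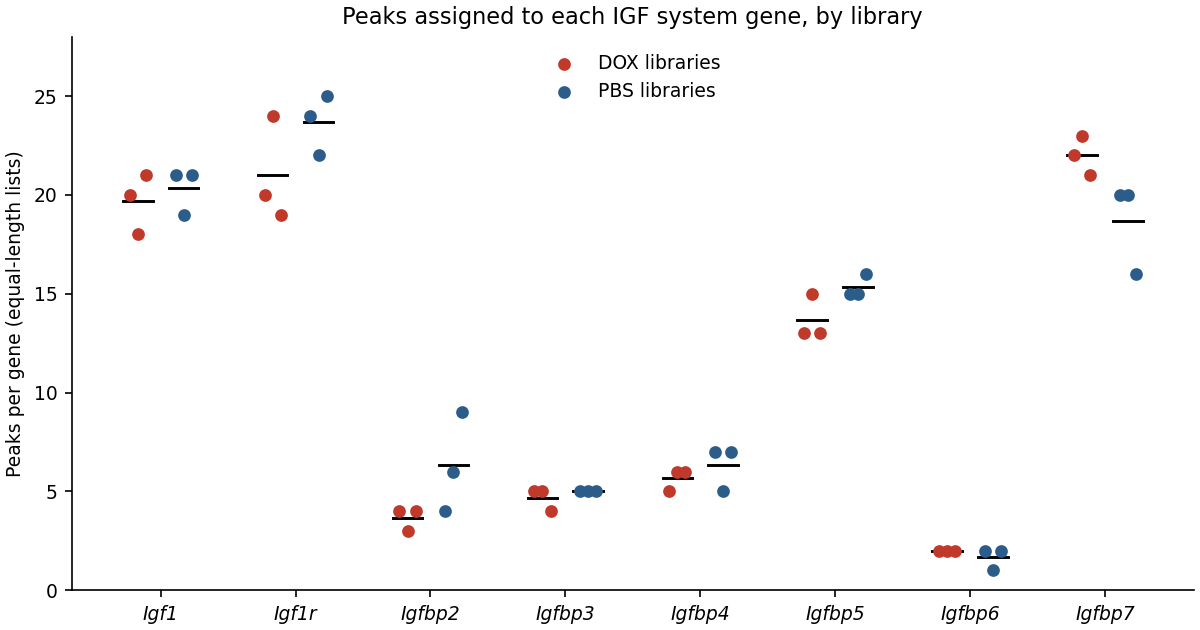
Peaks assigned to each gene in the equal-length lists, 1 point per library, with DOX libraries on the left of each pair, PBS libraries on the right and a bar at the mean of the 3 libraries. The groups overlap at every gene other than Igfbp7, where the DOX libraries had 21 to 23 peaks and the PBS libraries 16 to 20.

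Igf1, the ligand (chromosome 10, 87858265 to 87937047, plus strand), had its strongest open regions far outside the gene. Of its 21 regions 11 lay outside the gene. The strongest, 70549 bp before the gene (87787428 to 87788417), reached 165, 194 and 171 times the background after DOX (replicates 1, 2 and 3, as in all lists of values here), against 185, 187 and 152 times in PBS. Next came a region 37056 bp beyond the far end (87973710 to 87974680), at 154, 175 and 161 times the background in DOX and 138, 153 and 127 times in PBS. The distant elements were thus several times as high as those at the start of the gene. The region that touched the promoter window (87860080 to 87861160) had its summit 393 bp upstream of the start site. This promoter region was at 20.9, 34.7 and 38.7 times the background in DOX, against 25.2, 39.2 and 26.9 in PBS libraries. Another at the start of the gene span (87858156 to 87859752) reached 24.4, 29.9 and 27.4 in DOX and 24.4, 32.8 and 28.7 in PBS. Values of the groups overlapped at both of these regions.

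**Figure D2:**
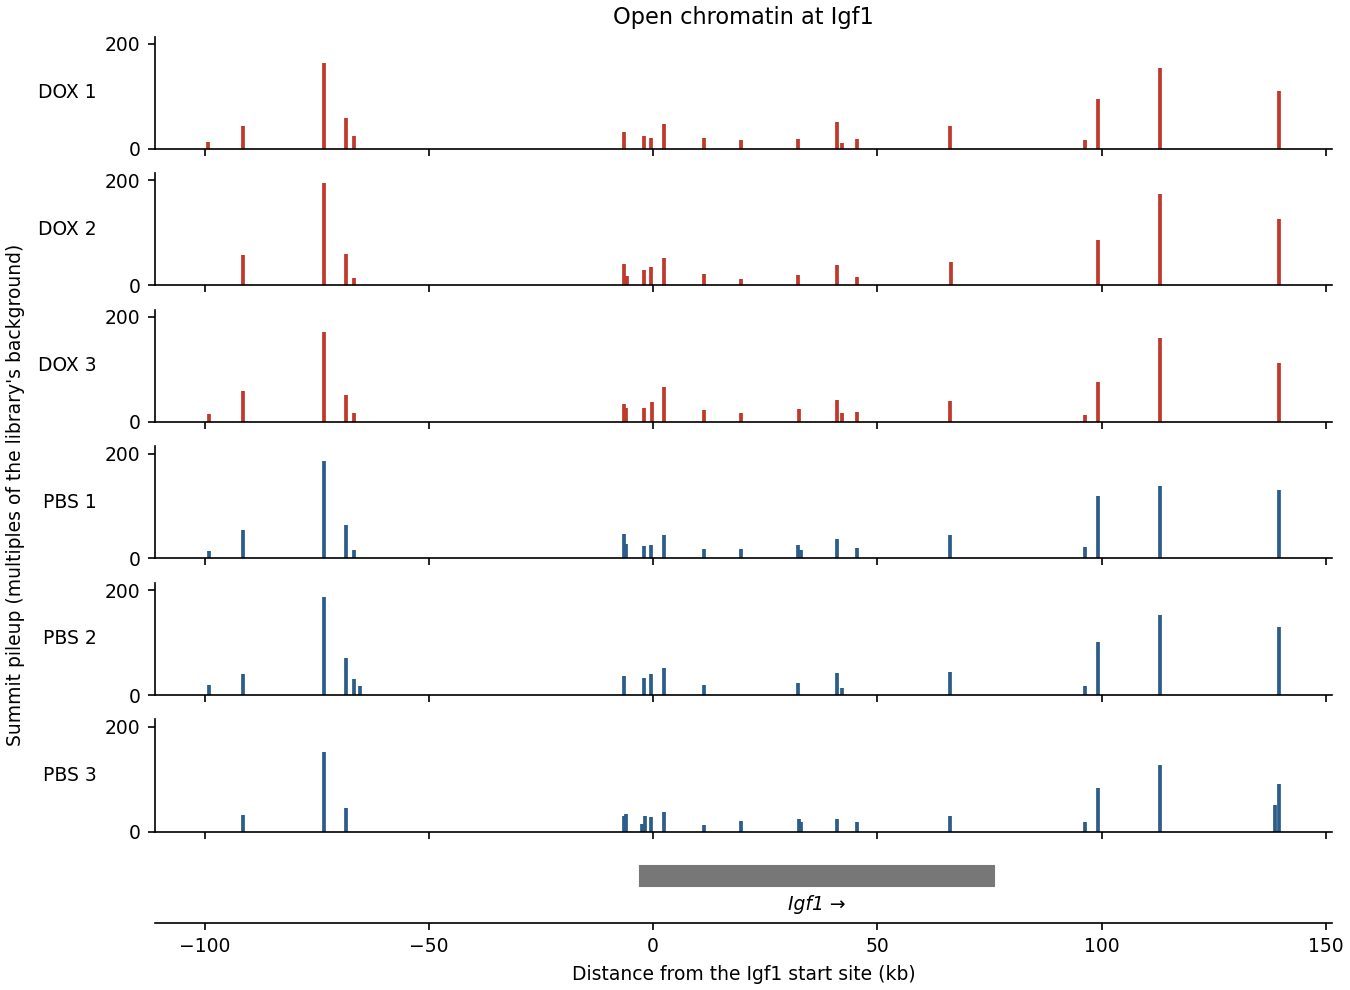
Kept peaks around Igf1 in each library, placed by the distance of their summit from the annotated start site in kb, with bar height the summit pileup in multiples of the library's background and the gene span in grey. DOX libraries (red) and PBS libraries (blue) share the tall peaks that flank the gene, such as the one 70549 bp before it.

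Igf1r, the receptor (chromosome 7, 67952257 to 68233668, plus strand), had 25 regions, of which 21 lay inside the gene and 17 had a kept peak in all 6 libraries. Its promoter region was wide, 3743 bp (67950591 to 67954333), and stood at 112, 123 and 121 times the background in DOX and 135, 139 and 117 times in PBS replicates 1, 2 and 3. Higher still were regions 176964 bp and 69707 bp downstream of the start site (68128899 to 68130361 and 68021626 to 68022167). The first reached 176, 221 and 210 times the background in DOX, against 173, 205 and 219 times in PBS, and the other 183, 200 and 154 times in DOX, against 191, 193 and 235 times in PBS. Both sets of values overlapped between the groups. A region at the far end of the gene (68233591 to 68234075) was low, at 17.4, 22.1 and 13.0 times the background in DOX and 13.4, 17.3 and 19.7 in PBS.

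Igfbp5 and Igfbp2 are neighbours on chromosome 1 that are transcribed towards each other and are 5590 bp apart. Igfbp5 (72858065 to 72874865, minus strand), whose product binds the extracellular matrix of bone, had an open promoter and the strongest region of all 8 genes. That region lay 40139 bp upstream (72914518 to 72915321) and stood at 211, 228 and 243 times the background in DOX, against 222, 273 and 210 times in PBS. By its median over the libraries it was stronger than 95.6% of kept peaks. The promoter region of Igfbp5 (72874324 to 72875458) was at 128, 146 and 143 times the background in DOX and at 147, 130 and 131 times in PBS. Next to it, inside the gene, stood a region (72872439 to 72873509) with 111, 135 and 130 times the background in DOX and 106, 143 and 106 times in PBS. At each of the 3 regions the groups overlapped. A region of 4450 bp (72853538 to 72857987) spread over most of the interval between the far ends of the genes and was at 62.2, 60.4 and 81.0 times the background in DOX, against 62.2, 76.6 and 69.9 in PBS.

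Igfbp2 (72824480 to 72852474, plus strand), whose product binds IGFs and cell surface proteoglycans, had only 2 regions with a kept peak in all 6 libraries. The strongest (72772715 to 72773469) lay 51450 bp before the gene, at 72.7, 70.5 and 108 times the background in DOX and 61.4, 64.8 and 68.1 in PBS. The groups were apart on this scale but overlapped by rank. Among the shared regions it stood at percentiles 63.7, 59.3 and 72.2 in DOX and 57.8, 57.2 and 63.2 in PBS. Its promoter region (72824526 to 72824890) had its summit 282 bp downstream of the start site and was near the limit of the lists. It was kept in DOX replicates 1 and 2, at 13.4 and 13.2 times the background, and in PBS replicates 1 and 3, at 14.2 and 12.6 times. In the full deposited lists it was also present in DOX replicate 3 at 9.45 times and in PBS replicate 2 at 8.21 times. DOX replicate 3 was also the only library in which a member of the 8 genes had no kept peak within 1 kb of a gene end, and that member was Igfbp2.

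**Figure D3:**
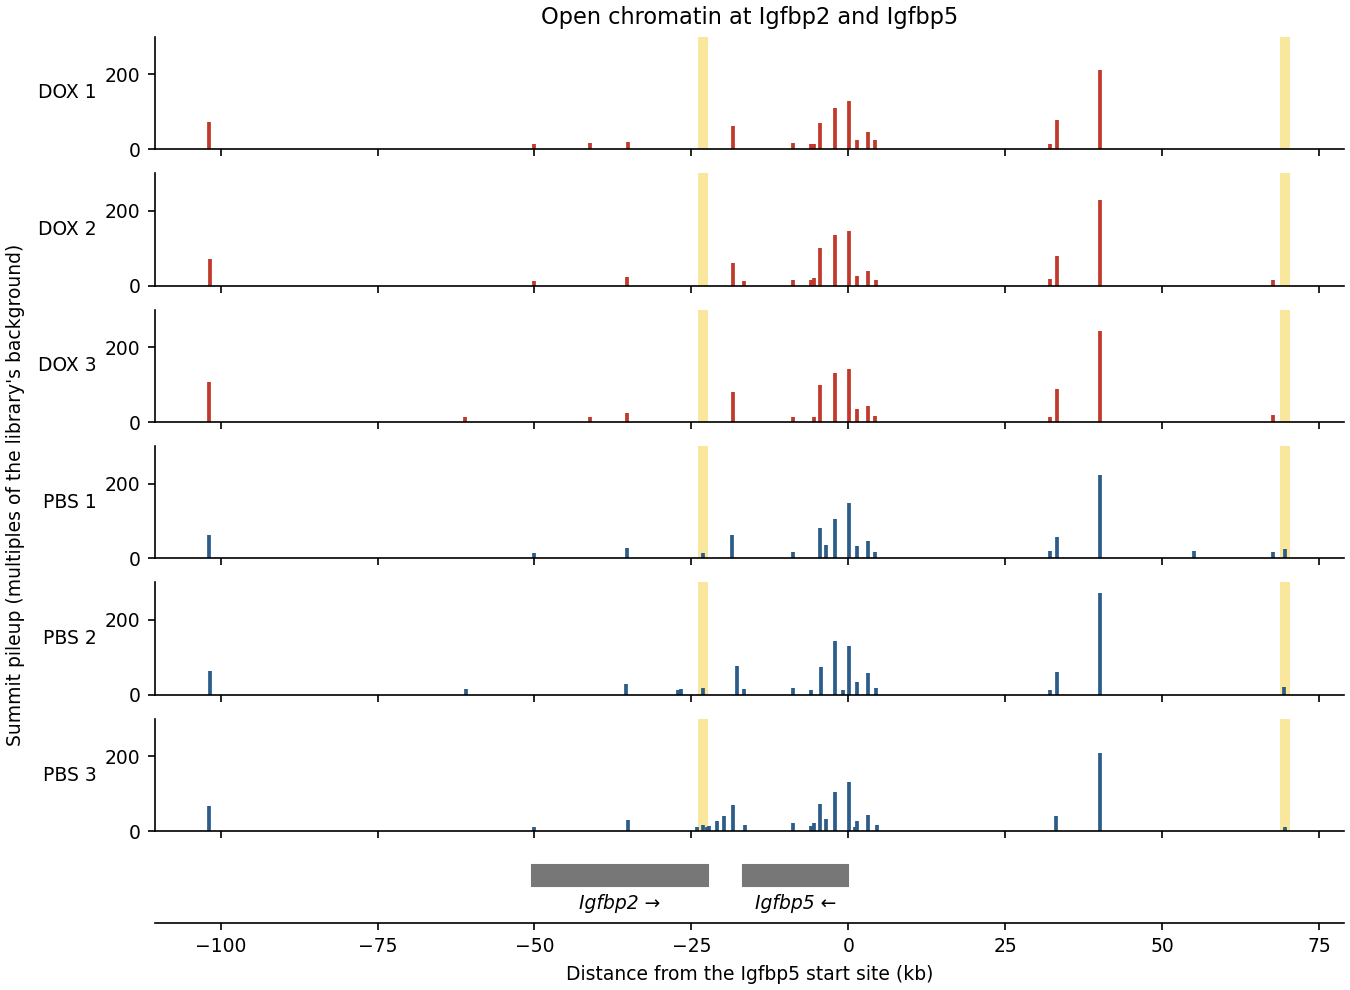
Kept peaks at Igfbp2 and Igfbp5 in each library, by distance from the Igfbp5 start site in kb (negative towards Igfbp2), with bar height the summit pileup in multiples of the library's background. The tall peaks stand at and upstream of Igfbp5 in DOX (red) and PBS (blue) libraries alike, and yellow bands mark the 2 regions here that had kept peaks in all 3 PBS libraries and in no DOX library.

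Igfbp4 (chromosome 11, 99040005 to 99052655, plus strand) encodes a binding protein that inhibits IGF action until the protease PAPP-A cuts it. Its neighbours are Tns4, 13022 bp away, and Top2a, 15805 bp away, the gene of a topoisomerase that doxorubicin poisons. The Igfbp4 promoter region (99039681 to 99041844) was 2164 bp wide, with values of 138, 162 and 173 times the background in DOX and 133, 161 and 109 times in PBS, which overlapped. A region inside the gene (99043023 to 99044799), chosen after its values were seen, was at 47.7, 70.5 and 74.2 in DOX and at 52.0, 74.8 and 62.8 in PBS. Of 6 regions 4 had a peak in all libraries and the other 2 in DOX replicate 3 alone.

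Igfbp3 (chromosome 11, 7206086 to 7215498, minus strand), the main carrier of IGF in serum, had 4 regions, all with a peak in each library. The promoter region (7213253 to 7215177) was the strongest, at 58.1, 68.8 and 63.0 times the background in DOX and 48.8, 52.9 and 55.6 in PBS. Every DOX value was above every PBS value here on this scale, but not by rank: among the shared regions the promoter stood at percentiles 56.2, 58.5 and 55.0 in DOX and 49.3, 49.5 and 56.5 in PBS. Igfbp6 (chromosome 15, 102144186 to 102149512, plus strand), whose product prefers IGF-II, had 2 regions. The stronger (102143076 to 102143598) lay 796 bp before the gene, just outside the promoter window shown above, with 33.1, 37.7 and 29.2 times the background in DOX and 29.1, 31.0 and 19.7 in PBS. The other, inside the gene, was kept in all libraries other than PBS replicate 2. There its deposited peak, at 12.8 times the background, was tied with the lowest kept peak.

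Igfbp7 (chromosome 5, 77349240 to 77408045, minus strand) encodes a more distant relative that binds IGFs with low affinity. It had 26 regions, 15 of them with a kept peak in every library. The strongest region (77372048 to 77373334) lay 35077 bp downstream of the start site, at 161, 197 and 184 times the background in DOX and 160, 163 and 149 times in PBS. The promoter region (77407299 to 77408239) was at 113, 143 and 129 times in DOX and at 110, 136 and 124 times in PBS. Further regions followed inside the gene and in a group that began 52485 bp upstream, with none between that group and the promoter.

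**Figure D4:**
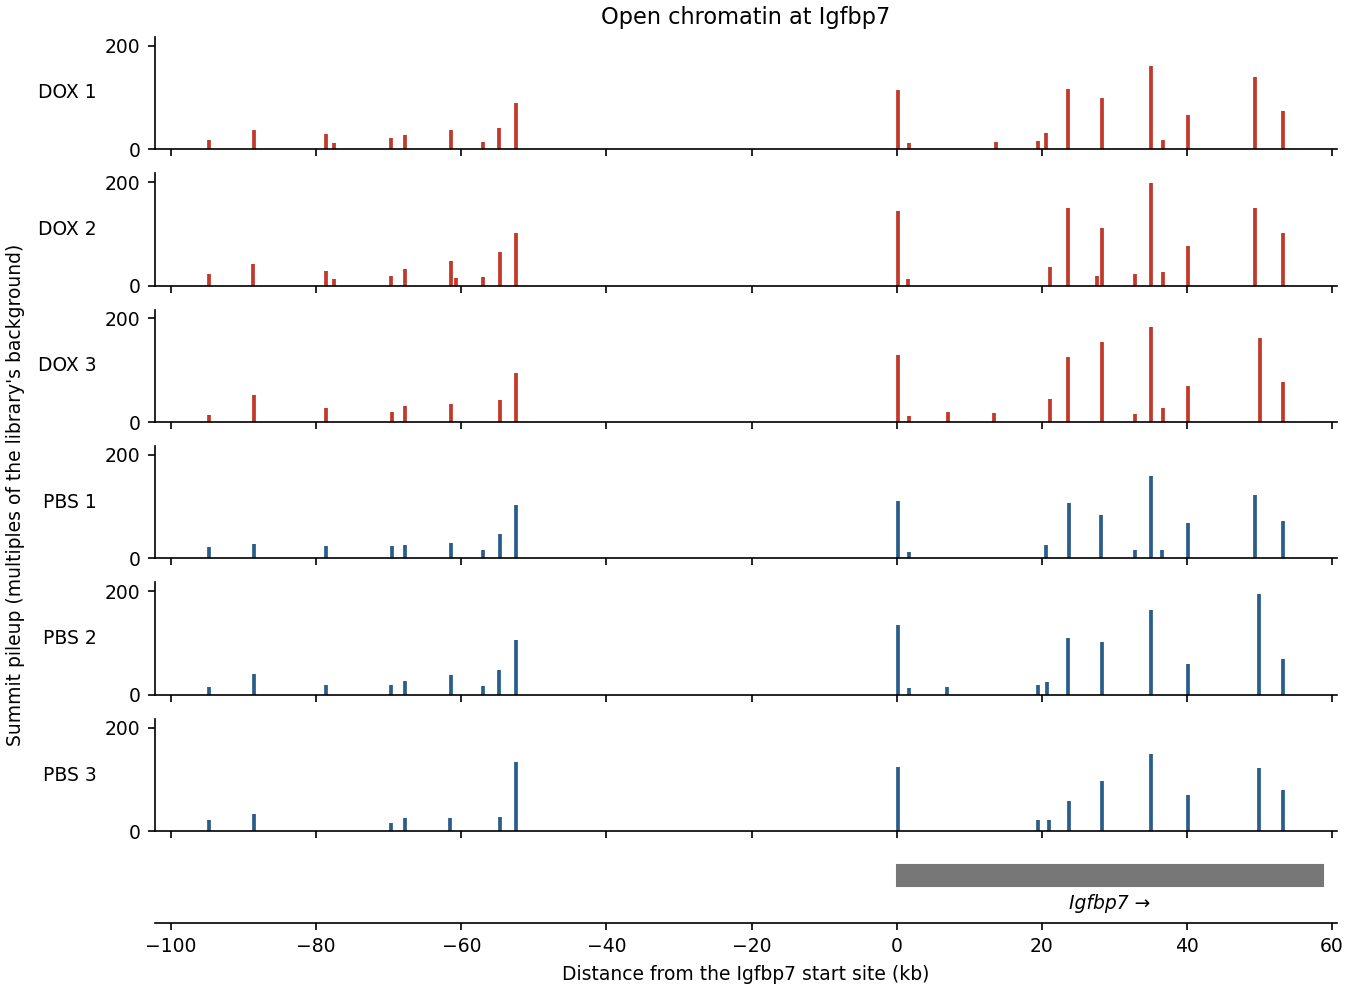
Kept peaks around Igfbp7 in each library, by distance of the summit from the start site in kb, with bar height the summit pileup in multiples of the library's background and the gene span in grey. Peaks line the gene body and a stretch that begins 52485 bp upstream of it, and DOX libraries (red) hold 21 to 23 of them, against 16 to 20 in PBS libraries (blue).

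The first comparison asked whether treatment with DOX had changed the number of peaks at a gene. No member (0 of 7 tested) passed limma at an adjusted p of 0.05 on log2(peaks + 0.5), and none had an unadjusted p under 0.05. Of all 8784 genes tested, those with a mean of at least 2 peaks, 95 (1.08%) passed, 0.535% as higher in DOX and 0.546% as lower, and 489 genes (5.57%) had an unadjusted p under 0.05. The member left out was Igfbp6, which, with 2 peaks in each DOX library and 2, 1 and 2 in PBS, was below that mean. Its second peak in PBS replicate 2 was tied with the lowest kept peak and fell out by the order of chromosomes. Each deposited list held 2 peaks at the gene. Igfbp7 had 22, 23 and 21 peaks in DOX and 20, 20 and 16 in PBS. All DOX values were above all PBS values, as in 2.72% of genes tested (limma log2 fold change 0.24 ± 0.11 SE, adjusted p = 0.655). Without PBS replicate 3 the log2 fold change was 0.13, and with peaks at least 20 times the background it was 0.095. No member had all DOX values below all PBS values, as did 2.33% of genes. Igfbp5 had 13, 15 and 13 peaks in DOX and 15, 15 and 16 in PBS (limma log2 fold change -0.16 ± 0.07 SE, adjusted p = 0.655). These groups shared the value 15. Igfbp2 had 4, 3 and 4 in DOX, against 4, 6 and 9 in PBS (limma log2 fold change -0.66 ± 0.32 SE, adjusted p = 0.663). Of the 9 in PBS replicate 3, 2 had their summit inside the region of 4450 bp given above under Igfbp5, where they were nearer to the end of Igfbp2. Without PBS replicate 3 the log2 fold change was -0.39. Peaks were narrower in that replicate: its kept peaks had a median width of 328 bp, against 505 to 542 bp in DOX libraries and 439 and 476 bp in PBS replicates 1 and 2. Merged regions at Igfbp2 numbered 4, 3 and 4 in DOX and 4, 5 and 4 in PBS. Igf1r had 20, 24 and 19 peaks in DOX and 24, 22 and 25 in PBS, and Igf1 20, 18 and 21 in DOX and 21, 19 and 21 in PBS. Igfbp4 had 5, 6 and 6 in DOX and 7, 5 and 7 in PBS, and Igfbp3 5, 5 and 4 in DOX and 5 in each PBS library. The log2 fold changes of these 4 genes were between -0.17 and -0.05 (limma, adjusted p from 0.795 to 0.988). Larger values included those with peaks at least 20 times the background for Igfbp4 (-0.57; limma, adjusted p = 0.493) and with all deposited peaks scaled to list length for Igf1 (-0.24; limma, adjusted p = 0.419). With all deposited peaks Igfbp3 was at 0.38, the opposite sign (limma, adjusted p = 0.254). Without DOX replicate 2 Igf1r was at -0.27 (limma, adjusted p = 0.596). The adjusted p over all alternatives ranged from 0.493 to 1 for Igfbp4 and from 0.419 to 1 for Igf1. At 6 of the 7 tested members, Igfbp7 excepted, the mean was lower in DOX, and 5 of these 6 signs turned when all deposited peaks were counted without scaling.

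The next comparison used the rank of each region. The 49098 regions with a kept peak in all 6 libraries were ranked in each library by the −log10 p of their strongest peak, and normal scores of the ranks were compared, so that a difference of 0 means an equal place among the shared regions. The share of cells in which a region is open and the degree of opening in each cell cannot be told apart in such bulk libraries. Members held 67 shared regions, 62.0% of their regions, against 62.5% over all regions. No member region passed limma at an adjusted p of 0.05, nor did any other shared region (0%). An unadjusted p under 0.05 was found for 11 of 67 member regions (16.4%), against 13.1% of all shared regions. Of the 67, 32 ranked higher and 35 lower in DOX, with a median score difference of -0.001, against -0.0002 over all shared regions. The ranks of the groups did not overlap in 9 member regions with DOX above and in 8 with DOX below, against 9.37% and 9.41% of all shared regions. These are 13.4% and 11.9% of the 67 regions, a few regions more than the shares of the genome would give, and nothing particular to the members is read from them.

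The smallest p among the 67 belonged to a region 33257 bp upstream of Igfbp5 (72907760 to 72908456). It stood at percentiles of 65.6, 63.4 and 65.8 among the shared regions in DOX, against 55.1, 54.4 and 45.1 in PBS, where a higher percentile is a stronger peak. The score difference was 0.35 ± 0.09 (SE; limma, adjusted p = 0.153, unadjusted p = 0.00151). All 3 DOX values lay above all 3 PBS values. At the tall region 40139 bp upstream the groups overlapped: percentiles of 94.3, 93.2 and 94.7 in DOX and 94.1, 95.7 and 92.1 in PBS gave a score difference of -0.003 ± 0.08 (SE; limma, adjusted p = 0.994).

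At Igfbp7 5 of 15 shared regions had an unadjusted p under 0.05 (33.3%, against 13.1% of all shared regions), of which 4, inside the gene, ranked higher in DOX. The regions at 23689, 28267 and 52485 bp from the start site are named for their p, after the values were seen, so that their direction supports nothing. A region 21097 bp downstream of the start site (77386657 to 77387717) stood at percentiles 30.9, 33.8 and 42.1 in DOX and 20.7, 15.6 and 15.3 in PBS, a score difference of 0.58 ± 0.20 (SE; limma, adjusted p = 0.229). Its neighbour 23689 bp downstream (77383621 to 77384605) stood at 78.1, 82.5 and 76.8 in DOX and at 75.8, 73.6 and 58.6 in PBS, with a score difference of 0.30 ± 0.10 (SE; limma, adjusted p = 0.242). The strongest region of the gene and one 28267 bp downstream were also without overlap, at score differences of 0.15 ± 0.07 and 0.18 ± 0.08 (SE; limma, adjusted p = 0.353 and 0.379). At the promoter the groups overlapped, with percentiles of 77.6, 81.0 and 77.5 in DOX and 76.4, 79.8 and 80.0 in PBS. Of the 5 regions with an unadjusted limma p under 0.05, the one upstream of the gene, at 52485 bp (77459924 to 77460842), ranked lower in DOX. It stood at 70.2, 71.1 and 68.1 in DOX and 74.7, 72.6 and 82.1 in PBS, a score difference of -0.21 ± 0.08 (SE; limma, adjusted p = 0.281). The lowest difference at Igfbp7 was -0.26 ± 0.40 (SE; limma, adjusted p = 0.821), 94821 bp upstream (77502705 to 77503131), with overlapping percentiles of 7.27, 10.8 and 1.22 in DOX and 14.8, 1.77 and 15.3 in PBS. In total 10 of 15 shared regions of Igfbp7 had a positive difference (66.7%, against 49.9% of all shared regions). In 5 the DOX ranks were all above the PBS ranks and in 1 all below, against 9.37% and 9.41% of all shared regions.

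At Igf1r 11 of 17 shared regions had a negative difference, and in 3 all DOX ranks were below all PBS ranks and in none above, against 9.41% and 9.37% of all shared regions. The promoter was among these, at percentiles of 77.2, 76.5 and 75.7 in DOX and 82.2, 80.3 and 78.4 in PBS (score difference -0.13 ± 0.07, SE; limma, adjusted p = 0.405). So was a region 9786 bp downstream (67961819 to 67962273), chosen after its values were seen, at 23.4, 37.7 and 25.9 in DOX and 41.9, 40.2 and 48.6 in PBS, a score difference of -0.40 ± 0.16 (SE; limma, adjusted p = 0.298). The largest difference in the gene was positive, at 21276 bp downstream (67973070 to 67973933), with percentiles of 40.5, 40.3 and 27.8 in DOX and 14.8, 12.3 and 28.9 in PBS and a score difference of 0.56 ± 0.21 (SE; limma, adjusted p = 0.270). The lowest at Igf1r was -0.45 ± 0.30, 175631 bp downstream. Neither of these last 2 separated the groups.

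At Igf1 the largest positive difference was that of a weak region 11390 bp downstream of the start site (87872126 to 87872732), at percentiles of 12.6, 12.8 and 13.0 in DOX and 6.27, 4.97 and 1.35 in PBS. Its score difference was 0.66 ± 0.34 (SE; limma, adjusted p = 0.416), the highest of all 67 member regions, with no overlap between the groups. The tall region 37056 bp beyond the gene was likewise without overlap, with percentiles of 86.5, 86.7 and 84.2 in DOX, 82.7, 83 and 80.7 in PBS and a score difference of 0.15 ± 0.07 (SE; limma, adjusted p = 0.336). The lowest at Igf1 was -0.36 ± 0.28. At Igfbp2 the region inside the gene (72839145 to 72840310) stood at 9.28, 12.8 and 14.5 in DOX and at 24.8, 24.9 and 31.8 in PBS, a score difference of -0.56 ± 0.23 (SE; limma, adjusted p = 0.313), and the distant one had a difference of 0.15 ± 0.09 (SE), or 0.054 without DOX replicate 3. Weak regions inside Igfbp5 (72865823 to 72866239) and Igfbp4 (99046772 to 99048192) had differences of -0.68 ± 0.39 and -0.57 ± 0.33 (SE; limma, adjusted p = 0.471 and 0.486). At both, as at the one inside Igfbp2, all DOX ranks lay below all PBS ranks. The promoters of Igfbp5 and Igfbp4 differed by -0.01 ± 0.07 and 0.15 ± 0.08 (SE; limma, adjusted p = 0.951 and 0.416), with 0.068 for Igfbp4 without PBS replicate 3. At Igfbp3 differences ran from -0.36 ± 0.27 to 0.34 ± 0.31, and at Igfbp6 the shared region had 0.30 ± 0.21 (SE), or 0.11 without PBS replicate 3. In the Igfbp3 region with the lowest difference all DOX ranks lay below all PBS ranks, and in another of that gene all lay above.

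**Figure D5:**
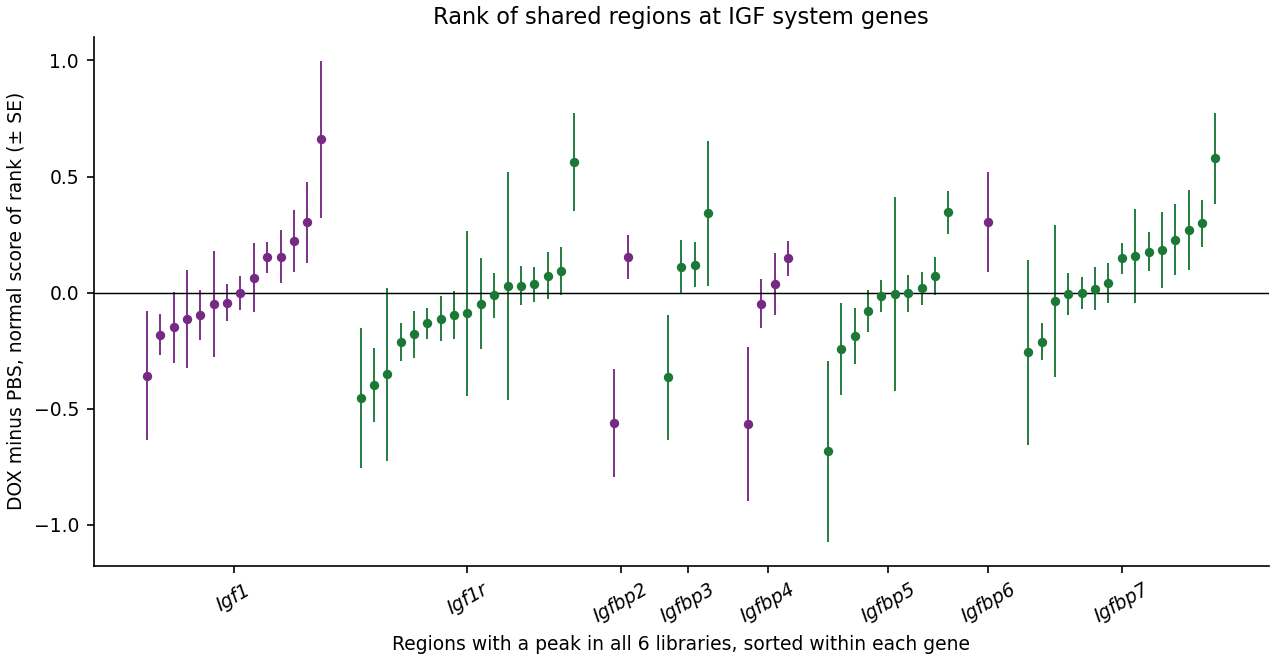
Difference in normal score of rank, DOX minus PBS, with its SE from limma for the 67 regions of the 8 genes that had a kept peak in all 6 libraries, sorted within each gene. Points lie on both sides of 0, with 32 above and 35 below, from -0.68 at Igfbp5 to 0.66 at Igf1.

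Presence in the lists gave no member region with a kept peak in all DOX libraries and none in PBS, and 3 regions of the opposite kind. These are 0% and 2.78% of the 108 member regions, against 0.792% of all regions for DOX only and 0.303% for PBS only. All 3 were in the DOX lists as deposited, where they lay below the level at which the lists were made equal. The Igfbp5 region (72944296 to 72944617), 69542 bp upstream, was deposited at 9.30, 12 and 12.1 times the background in DOX and kept at 24.4, 20.1 and 12.6 times in PBS. The region at the far end of Igfbp2 (72847938 to 72853133) had 3, 4 and 4 deposited peaks in DOX and 4 in each PBS library. The highest was at 10.5, 10.2 and 10.3 times the background in DOX, none of them kept, and in PBS, where 1, 2 and 4 peaks were kept, at 14.2, 17.3 and 16.1 times. The region inside Igf1r (68148428 to 68148893) was deposited at 6.98, 8.97 and 7.65 times in DOX and kept at 15, 13.7 and 14.3 times in PBS. None of the 3 regions stayed PBS only with all deposited peaks, with the strongest 32731 peaks, with peaks of at least 20 times the background or with an overlap of 50% of the region. The first 3 of these outcomes were fixed by the heights given and add nothing to them. Each region had deposited DOX peaks, and each had PBS peaks too low for the 2 stricter cuts. The other 38 regions were kept in some libraries of either or both groups. A region inside Igfbp7 (77371259 to 77371480), chosen after its values were seen, was kept in all DOX libraries, at 17.4, 26.9 and 26.5 times the background, and only in replicate 1 of PBS, at 17.3 times. It was deposited at 8.21 times in PBS replicate 2 and had no deposited peak in PBS replicate 3, the library with the lowest background. At gene ends, 8, 8 and 7 members had a kept peak in DOX and 8 in each PBS library. No member had one in a single group only, as did 0.18% of all genes for DOX and 0.0231% for PBS.

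Of other genes of the IGF axis, a list of 31 ligands, receptors, proteases and signalling genes, 29 were tested for peaks per gene and none passed limma at an adjusted p of 0.05 in either direction. The median log2 fold change was -0.04, against 0 over all genes tested. The unadjusted p was under 0.05 for 2 of the 29, against 5.57% of all genes tested, and these are named for that reason: Jak2, a kinase gene, with 6, 6 and 5 peaks in DOX and 7 in each PBS library (-0.29; limma, adjusted p = 0.590), and Pik3r1, a regulatory subunit gene, with 45, 42 and 47 in DOX and 40, 39 and 35 in PBS (0.23; limma, adjusted p = 0.655). The insulin receptor gene Insr had 8, 4 and 6 peaks in DOX and 9, 8 and 11 in PBS, with the largest log2 fold change of the list, -0.63 (limma, adjusted p = 0.655). Pik3ca, a catalytic subunit of the kinase that IGF receptors activate, had 2, 2 and 1 in DOX and 2, 3 and 3 in PBS (-0.57; limma, adjusted p = 0.666). Igf2bp3, which encodes an RNA-binding protein, had 2, 3 and 2 in DOX and 2, 2 and 1 in PBS (0.41; limma, adjusted p = 0.795). Igf2, the other ligand, had 7 peaks in each DOX library and 6, 8 and 5 in PBS, with no peak at a gene end in any library (0.16; limma, adjusted p = 0.875). Pappa, the protease that cuts Igfbp4 protein, had 29, 28 and 27 in DOX and 34, 28 and 35 in PBS (-0.20; limma, adjusted p = 0.676). A gene end was open in all 6 libraries at 26 of the 31, and in none at Igf2, Pappa2 and Igf2bp3. Regions kept in 1 group only were 3 for DOX, of which 2 belonged to Pik3r1 and 1 to Irs2, and 2 for PBS, at Foxo3 and Jak2. Over all regions the shares are 0.792% for DOX only and 0.303% for PBS only. The 31 genes held 207 regions with a kept peak in all 6 libraries. Their total of regions is not given here, so nothing is read from these counts. Of 9 relatives of the binding proteins 7 were tested and none passed, with no unadjusted p under 0.05 (lowest limma adjusted p = 0.795). Among them Ccn1, an immediate early matrix protein gene, had 8, 6 and 7 peaks in DOX and 10, 6 and 15 in PBS (-0.45). Igfbp1, next to Igfbp3, had 1 peak in DOX replicate 2 and none in the other libraries.

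Genes whose peak numbers ran closest to those of a member, by the mean absolute difference of log2(peaks + 0.5) over the 6 libraries, were S1pr3 and Sh3bp4 for Igf1 (0.0459 and 0.0465), Sh3pxd2b and Adcy9 for Igf1r (0.0649 and 0.0864), and Akap12 and Susd6 for Igfbp5 (0.0302 and 0.0332). For Igfbp7 they were Abi3bp and Lhfpl2 (0.0694 and 0.0708), for Igfbp4 Wipi1 (0.0344), and for Igfbp2 Grik3 and Asap2 (0.0872 and 0.105). Likeness here reflects the level as much as the variation across libraries.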

How the data were processed

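ATAC-seq peaks of 6 libraries (3 DOX, 3 PBS; groups and replicate numbers from the titles) were analysed. Per the labels' protocols, nuclei of sorted cells were processed by an Omni protocol. Per the submitters' processing notes the build was mm10 and the tools included Trim Galore 0.6.6, Bowtie2 2.4.5, Picard 2.10.9 and MACS2 2.2.7.1; the sources used here give neither their settings nor any Tn5 shift. The deposited lists, called per library, hold for each peak a fold enrichment (a ratio over the library's background), a −log10 p and −log10 q, a score of 10 times −log10 q, and a summit position, another kind of value; the authors did not scale them between libraries. Within each list, and not between lists, they served to order or select peaks.

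Fold and −log10 p gave, under MACS2's Poisson model, 1 constant background per library and whole pileups (within 0.05 for 100% of peaks with a −log10 p under 200). Chromosomes 1 to 19 and X were used. A gene end was within 1 kb of either end of a RefSeq span (GRCm38.p6); exons and introns were not told apart. Regions merged peaks overlapping by at least 1 bp. Peaks per gene (pseudocount 0.5, mean of at least 2) and normal scores of region ranks were tested with limma 3.58.1 (R 4.3.3; trend and robust moderation, Benjamini-Hochberg over all features), after both fits had been tested on simulated data. For peaks per gene, counts were drawn from a Poisson distribution around each gene's mean. There the fit called 21 of 100 genes changed 2-fold and 85 of 100 changed 4-fold, with 6 false calls. Real counts could vary less than such draws: at Igf1, with a mean of 20 peaks, the SD was 1.53 in DOX and 1.15 in PBS. These shares therefore do not give the power of the test at the members. The rank fit called 138 of 200 regions shifted by 1 score unit, with 2 false calls. A gene or region that did not pass may still differ. Named regions were, per gene, those at promoters or gene ends, the strongest, those in 1 group only, those called, and those with the highest and lowest rank difference. Some other regions named in the text fell outside this rule, and the text does not mark all of them. Named genes of the axis were the called ones, the 4 with the largest fold change, and Igf2, Insr and Pappa. Genes most alike were named for members averaging at least 5 peaks; some items are not reported here. The members and lists were chosen with earlier results of these data known. Alternatives were other list lengths, counting rules, filters, distances, fits and each library left out.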

Additional observations from a re-analysis of the deposited data

How the results depend on the processing

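No member passed either test under any of the alternatives run. For peaks per gene, 1 or 2 members had an unadjusted p under 0.05 under some of them. An example is Igfbp5 without DOX replicate 2 (limma, unadjusted p = 0.00534, adjusted p = 0.250). Over all genes, 95 were called for peaks per gene (47 higher and 48 lower in DOX). This became 205 with no filter on low values, 0 with a pooled spread as a floor (limma), 38 with the replicate number as a block, 3 with all deposited peaks scaled to list length (an alternative chosen after seeing the data), and 169 to 282 with any library left out. The split was 76 higher and 13 lower with all deposited peaks and 75 and 24 with union regions counted. Shared regions called by rank were 0, and 2 with lists cut to 32731 peaks, 89 with the mean of a region's peaks, 48 with the replicate block and 0 to 93 with 1 library left out: 3 without DOX replicate 1, 2 without DOX replicate 2, 93 without PBS replicate 1 and 1 without PBS replicate 2. Same-numbered libraries did not deviate together (correlations of -0.10 to 0.11 in rank), and the block changed no call on a member. Member regions kept in DOX only were 0, and 1 with all deposited peaks (near Igfbp7), 1 with peaks at least 20 times the background (in Igf1), 3 with an overlap of 50% of the region, 2 without DOX replicate 2, 1 without DOX replicate 3 and 1 without PBS replicate 1, a range of 0 to 2 with libraries left out. Those kept in PBS only were 3, and 0 with all deposited peaks, with 32731 peaks, with peaks at least 20 times the background and with an overlap of 50%, and 3 to 4 with a library left out. Signs turned for these log2 fold changes of peaks: Igf1 0.053 with 32731 peaks, 0.048 with union regions and 0.013 without DOX replicate 2; Igf1r 0.12, Igfbp2 0.092, Igfbp3 0.38, Igfbp4 0.17 and Igfbp5 0.21 with all deposited peaks; Igfbp3 0.17 with these scaled to list length; Igfbp4 0.065 with 32731 peaks and 0.18 with union regions. With libraries left out, the rank difference inside Igfbp3 ranged from -0.12 (without PBS replicate 3) to 0.61 and the lowest one of Igfbp7 from -0.60 to 0.051 (without DOX replicate 3). The causes were not tested. Depth limits all of this: a missing peak says that a region was at or under the threshold of its library, not that it was closed.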
